A study of Mus musculus with 12 samples.

Results

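The medial piece of the embryonic mouse cerebral hemisphere was set against the other 4 pieces cut from it, named dorsal, ventral, rostral and occipital. The members were the 2 arrays titled medial, of 12 arrays in all, and the reference was the mean of the 4 piece means over 8 arrays. The 2 arrays of the whole hemisphere stayed outside the contrast and are given beside it. All samples were cortex of E16.5 mouse embryos, with no treatment or genetic change named in the labels, and strain and sex were not given in the sources used here. Each of the 6 groups had 2 arrays, and the labels state that replicates came from independent dissections. By the protocol, poly(A)+ RNA was copied into labelled cRNA and hybridised to an Affymetrix mouse oligonucleotide array. One piece is lateral in the protocol and rostral in the titles, and it is called rostral here. The position of the cuts was not given in the sources used here.

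At this age radial glia, the stem cells of the cortex, divide at the ventricle, and intermediate progenitors divide above them and give rise to glutamatergic projection neurons. Interneurons that release GABA are born in the ganglionic eminences under the cortex and migrate into it. The medial wall of the hemisphere forms the hippocampus and carries the cortical hem, a source of Wnt and Bmp signals. In a piece of tissue, fewer cells of a type and less RNA per cell cannot be told apart.

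The value of a probe set is its average difference: each perfect-match probe's signal less that of its mismatch partner, averaged over the set, in linear scanner units that can fall below 0. Values under a floor of 693.5 were raised to it before log2 was taken, so differences of low genes are understated. The medial arrays correlated at r = 0.934 with each other over the tested probe sets. Medial replicate 1 correlated at 0.965 with dorsal replicate 1 and medial replicate 2 at 0.946 with dorsal replicate 2, each above its correlation with its own replicate. This was not particular to dorsal. The correlations with the same-numbered rostral arrays (0.961 and 0.944) and occipital arrays (0.938 and 0.938) were above it too. Both medial arrays correlated least with ventral, at 0.854 to 0.888. Between 40.3% and 41.6% of probe sets lay above 1387, which is 2 times the floor, on the medial arrays, and between 39.8% and 41.4% on the other 8. For Gapdh, the 5′ signal divided by the 3′ signal, a measure of cDNA length, was 1.14 and 1.16 on the medial arrays and 0.982 to 1.13 on the other 8. The same ratio for beta-actin was 0.725 and 0.887 against 0.665 to 0.886. The part of cDNA length in the differences was not tested. Rostral replicate 2 and occipital replicate 1 correlated at 0.963 with each other and at 0.934 and 0.936 with their own replicates, so counts are also given without these pieces.

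The genes called higher in the medial piece included genes of progenitors and cell division, such as Cdk1 and Eomes. Those called lower included genes of GABAergic cells and of neuronal secretion, such as Gad1, Npy and Scg2. Gad1 was about as low in dorsal (mean 2963, against 2831 in medial). With ventral out of the reference, the adjusted p was 0.116 for Cdk1, 0.229 for Eomes and 0.145 for Gad1 (limma). Of 5832 probe sets tested, 74 passed an adjusted p of 0.05 (1.27%; limma with Benjamini-Hochberg adjustment), 30 higher (0.514%) and 44 lower (0.754%). They stand for 30 genes that were higher by 0.63 to 1.69 log2 units and 35 genes that were lower, at -0.64 to -2.84. A further 6 lower probe sets had no single gene symbol. Both replicates gave the same sign for all 74. The median difference of the 30 genes was 0.95 in replicate 1 and 0.93 in replicate 2, and that of the 35 genes -0.98 and -1.02. The calls were made on these same arrays, so this agreement is no separate support. At an unadjusted p under the threshold, 810 probe sets differed. After quantile normalization 24 were called higher and 55 lower.

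The count changed with single arrays. Without medial replicate 2, limma called 0 probe sets (559 at an unadjusted p under the threshold, smallest adjusted p 0.0743), and without medial replicate 1 it called 10. Without a dorsal array the count was 23 or 6, and without a ventral array 8 or 9. Leaving out rostral replicate 2 gave 46, occipital replicate 2 gave 40, and either hemisphere array gave 124. Without the rostral and occipital pieces it was 166, 95 higher and 71 lower, and 55 of the 65 named genes kept their call. None of the 65 genes changed direction in 24 alternative settings, and 0 kept their call in all 12 fits that left out 1 array. Scg2, Vsnl1 and Npy kept it in 11 of those fits, and Cdk1, Pter, Stx1a and Ptpn5 in 10. Of the 30 higher genes 3 met the filter on low values only through medial, and of the 35 lower genes 2 only through ventral.

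**Figure D1:**
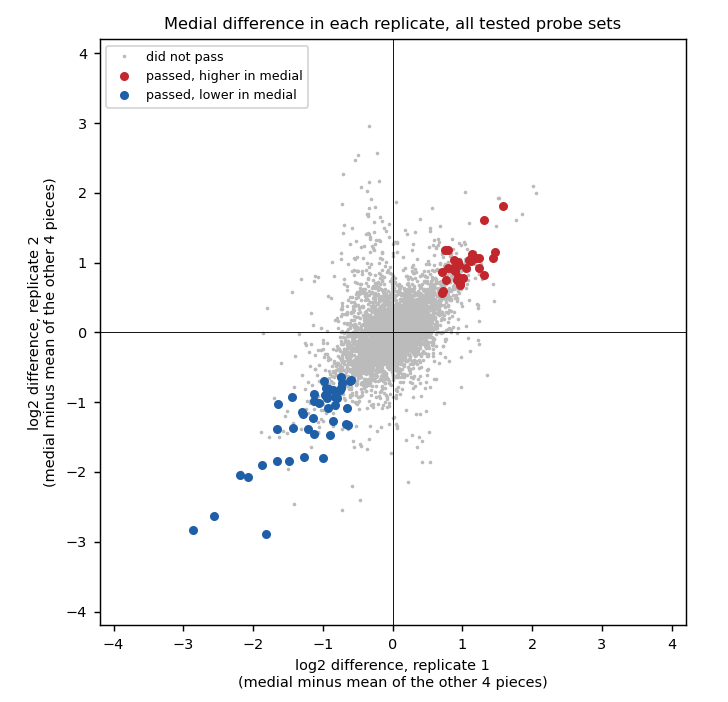
Each point is a tested probe set, with its log2 difference between the medial piece and the mean of the other 4 pieces in replicate 1 (x axis) and replicate 2 (y axis); red points passed and were higher, blue points passed and were lower, grey points did not pass. The 74 that passed, chosen on these same arrays, lie in the lower left and upper right of the plot. Over all 5832 the replicate differences correlate at r = 0.508.

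The ventral piece lay farthest from the medial piece. Over the tested probe sets the SD of the log2 difference was 0.643 against ventral, 0.354 against dorsal, 0.348 against rostral and 0.36 against occipital. The spread between the medial replicates, as the SD of their difference divided by the square root of 2, was 0.364. Ventral was the piece farthest from medial for 27 of the 30 higher genes and dorsal for the other 3. It was also the farthest for 33 of the 35 lower genes, and dorsal for the other two. The median difference of the higher genes was 1.84 against ventral, 0.72 against dorsal, 0.61 against rostral and 0.6 against occipital. For the lower genes it was -1.8 against ventral, -0.47 against dorsal, -0.97 against rostral and -0.92 against occipital. Both medial arrays were above all 8 others for 30 of the 30 higher genes, where 5.22% of all tested genes were so. They were below all 8 for 24 of the 35 lower genes, where 5.44% of tested genes were so. These shares rest on the arrays that chose the genes.

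**Figure D2:**
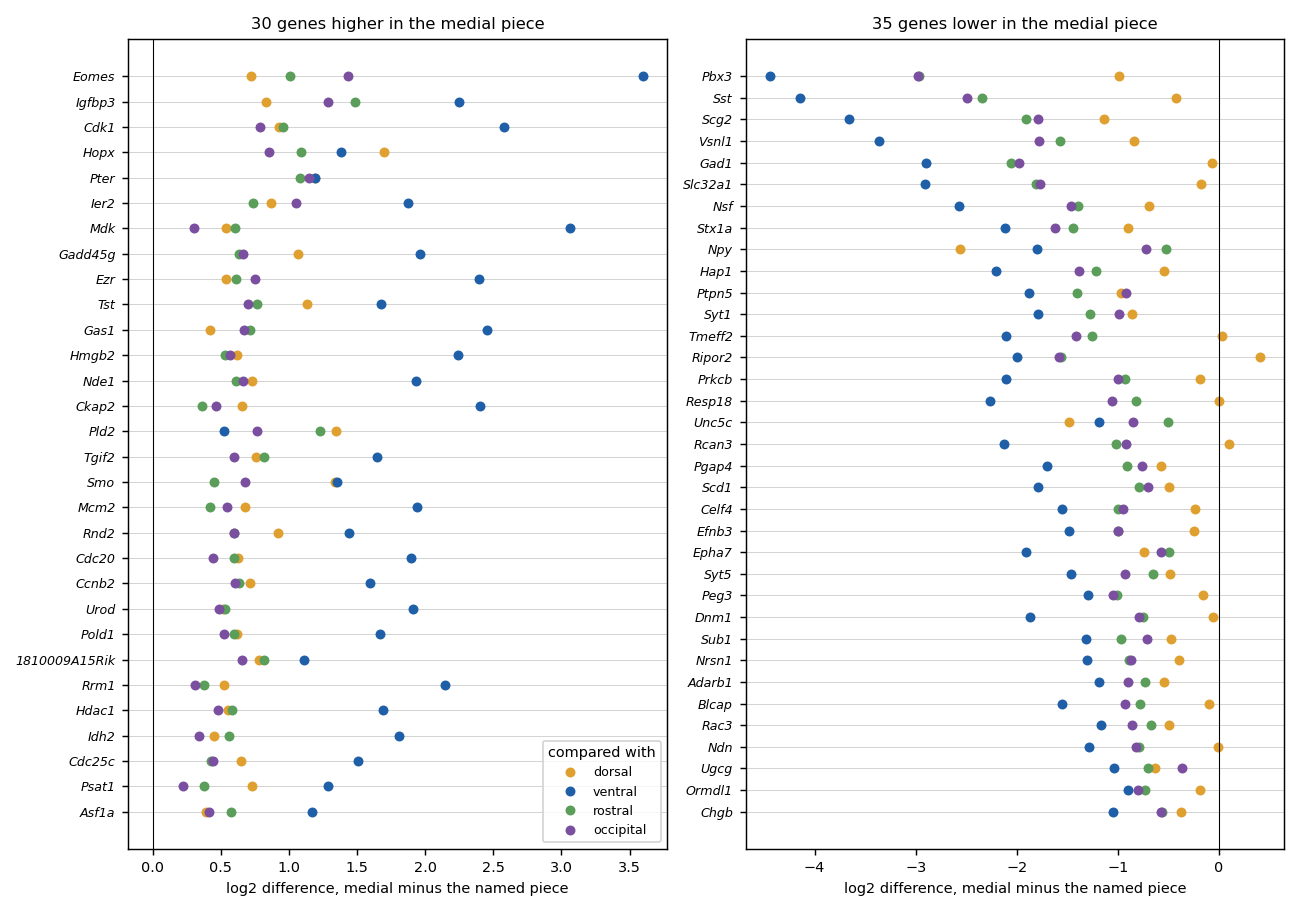
Log2 difference between the medial piece and each other piece (x axis) for the 30 genes called higher (left) and the 35 called lower (right); a point is a difference of means over 2 arrays, coloured by the piece compared. The ventral points lie farthest from 0 for 27 and 33 of the genes, and 4 lower genes lie at or right of 0 against dorsal.

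Genes of the G2 phase and mitosis formed the largest group among the higher genes. Of 30 tested members, 6 were higher and 0 lower, with a median difference of 0.7 against 0.02 over all 4562 tested genes, of which 0.658% were called higher and 0.701% lower. The difference was positive for 30 of 30, and both medial arrays were above all 8 others for 16. Among all tested genes 52.6% had a positive difference, and 5.22% had both medial arrays above all 8. Against single pieces the list's median was 1.44 for ventral, 0.58 for dorsal, 0.45 for occipital and 0.38 for rostral. The 6 were Cdk1, Ccnb2, Cdc20, Cdc25c, Ckap2 and Hmgb2. This list and those below were drawn up with earlier results of these data known, so their counts are no separate support.

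Cdk1 encodes the kinase that drives cells into mitosis. It read 7510 and 6115 on the medial arrays, and 1074, 3513 and 4344 as the lowest, median and highest of the other 8. No other array reached the medial ones, and the lowest values were ventral. The difference was 1.31 ± 0.138 (SE; adjusted p = 0.00694, limma), a 2.48-fold change. Ccnb2, a cyclin partner of Cdk1, read 8752 and 8939 against 2930 to 6552. Cdc20, which activates the anaphase-promoting complex, read 7652 and 6692 against 1815 to 5382. Cdc25c, a phosphatase that activates Cdk1, read 1971 and 1970 against 432 to 1657. These 3 genes were higher by 0.89, 0.89 and 0.76 log2 units (adjusted p = 0.0326, 0.0317 and 0.0435, limma). Ckap2, a protein of the mitotic spindle, and Hmgb2, a chromatin protein abundant in dividing cells, were higher by 0.97 and 0.99. Among members that did not pass, Top2a, which untangles replicated DNA, read 2108 and 2088 (0.81, adjusted p = 0.222, limma), and Mki67, the Ki-67 antigen, read 2863 and 2720 (0.73, adjusted p = 0.427).

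Promoters of Cdk1, Ccnb2 and Cdc20 are shown because these genes were called together and carry motifs known from cell cycle promoters. The motifs searched were CCAAT, bound by the factor NF-Y, and TTTGAA, the cell cycle homology region. Each stretch is the 100 bases before the annotated start (RefSeq, GRCm38.p6), 5′ to 3′ on the gene's strand, with matches on either strand in capitals. They lie at chr10:69352913-69353012, chr9:70421555-70421654 and chr4:118437344-118437443, all on the minus strand.
Cdk1: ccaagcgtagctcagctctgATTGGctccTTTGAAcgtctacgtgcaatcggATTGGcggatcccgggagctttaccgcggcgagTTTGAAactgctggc
Ccnb2: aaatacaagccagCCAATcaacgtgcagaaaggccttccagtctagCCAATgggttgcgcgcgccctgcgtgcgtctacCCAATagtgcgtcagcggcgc
Cdc20: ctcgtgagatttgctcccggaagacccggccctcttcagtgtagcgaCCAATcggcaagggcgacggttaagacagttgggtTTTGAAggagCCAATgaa
Promoters were matched for 24 of the 30 higher genes and 30 of the 35 lower ones, and 250 bases before the start were searched on both strands. CCAAT was present in 18 of the 24 (75%), in 10 of the 30 (33.3%), in 41% of 3699 tested genes and in 37.5% of 27025 genes. TTTGAA was present in 6 of the 24 (25%), 6 of the 30 (20%) and 12.5% of tested genes. The E2F sites TTTGGCGC and TTTCGCGC were each present in 1 of the 24, against 1.08% and 0.757% of tested genes. In Ccnb2 the TTTGAA match begins 167 bases before the start, outside the stretch shown. A match describes letters in this window only.

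Of 20 tested DNA replication genes 2 were higher and 0 lower, with a median of 0.56. Both medial arrays were above all 8 others for 7. Among all tested genes 0.658% were called higher, and 5.22% had both medial arrays above all 8. Mcm2, a subunit of the replicative helicase, read 2732 and 2889 against 584 to 2289 (0.89 ± 0.136, adjusted p = 0.0211, limma). Rrm1, the large subunit of ribonucleotide reductase, read 4874 and 4388 against 1027 to 4091 (0.84, adjusted p = 0.0375). Outside the list, Pold1, the catalytic subunit of DNA polymerase delta, was higher by 0.85 (adjusted p = 0.0364). Asf1a, a histone chaperone, and Hdac1, a histone deacetylase, were higher by 0.63 and 0.83. The G1 cyclins differed in sign without passing. Ccnd3 gave 1.02 (adjusted p = 0.0912) and Ccnd1 gave -0.49 (adjusted p = 0.236).

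Intermediate progenitor and pallial neurogenesis genes had the highest median of the 20 function lists, at 0.76 over 12 tested members. Of these 2 were higher and 0 lower, where 0.658% of all tested genes were called higher. Eomes, the T-box factor that marks intermediate progenitors, read 7361 and 9542 in medial. It read 4460 and 5764 in dorsal, 5122 and 3404 in rostral, 2355 and 4076 in occipital, and 231 and 240 in ventral. The medial arrays were above every other array, and ventral lay under the floor. Its difference was 1.69 ± 0.237 (adjusted p = 0.0194, limma), the largest of the higher genes, and without ventral in the reference 1.05 (adjusted p = 0.229). Another Eomes probe set gave 1.09 (adjusted p = 0.0597). The proneural gene Neurog2 read 7141 and 9904 with a difference of 1.72, but did not pass (adjusted p = 0.0752). Gadd45g, a growth arrest gene expressed in newly formed neuronal precursors, was higher by 1.08 (adjusted p = 0.0211). Rnd2, a small GTPase of migrating cortical neurons, read 8584 and 8746 against 2780 to 6024, higher by 0.89 (adjusted p = 0.0388).

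**Figure D3:**
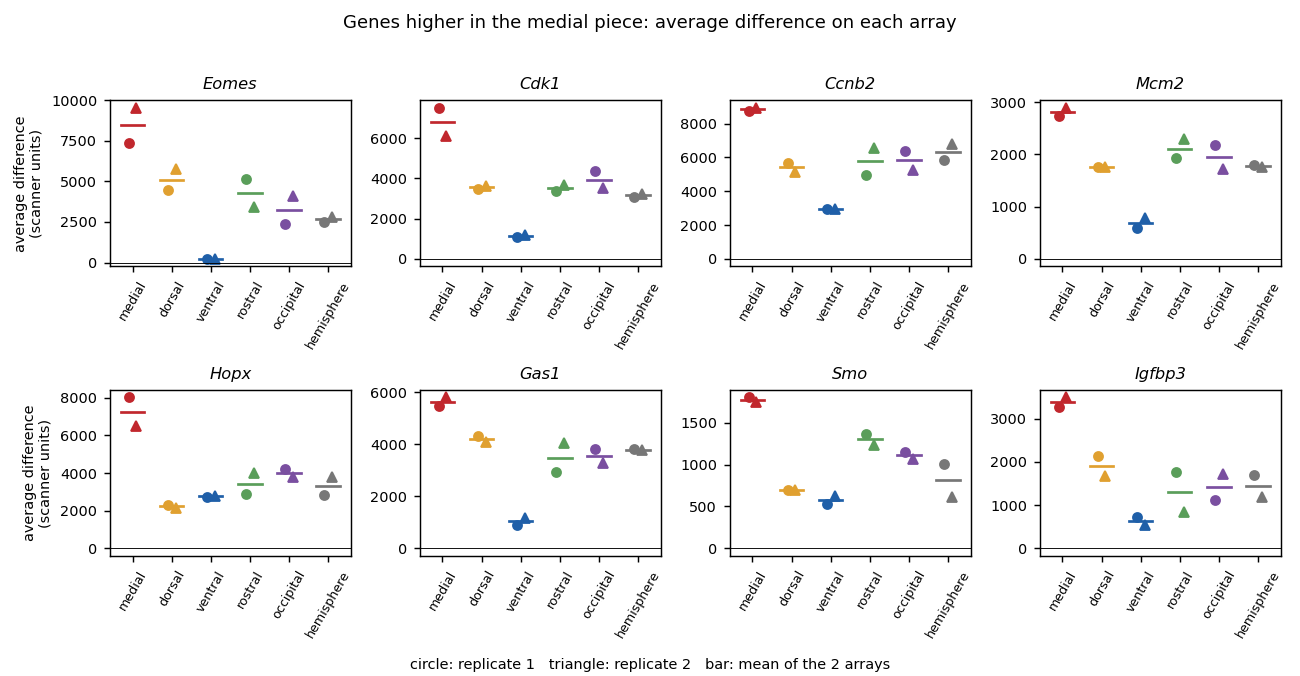
Average difference (y axis, linear scanner units) on each array for 8 of the genes called higher, by piece (x axis); circles are replicate 1, triangles replicate 2 and bars the mean of 2 arrays. Both medial arrays lie above all 8 arrays of the other pieces in each panel, and ventral is lowest in 7 of them, with Hopx lowest in dorsal.

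Of 21 tested radial glia genes 4 were higher and 0 lower, with a median of 0.63. Both medial arrays were above all 8 others for 11. Among all tested genes 0.658% were called higher, and 5.22% had both medial arrays above all 8. Hopx, a homeodomain protein, read 8015 and 6481 in medial. The lowest, median and highest of the other 8 were 2125, 2838 and 4202, and dorsal, not ventral, was the lowest piece. The difference was 1.25 ± 0.174 (adjusted p = 0.0187, limma) and 1.21 without ventral in the reference (adjusted p = 0.0744). Mdk, the secreted growth factor midkine, read 19542 and 16751 against 1869 to 16733, with occipital replicate 2 close under medial (1.13, adjusted p = 0.0211). Ezr, which ties the membrane to actin, and Gas1, a co-receptor for Hedgehog, were higher by 1.07 and 1.06. Pax6, a transcription factor of pallial radial glia, read 3611 and 2665 and missed the threshold (0.87, adjusted p = 0.0588). Other abundant members had differences near 0. Fabp7, the brain lipid-binding protein, gave -0.03 (adjusted p = 0.97), and Sox2 gave -0.01 (adjusted p = 0.994). The members of the list were chosen with earlier results of these data known, so its count of calls depends on that choice.

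Smo, the transducer of Hedgehog signals at the membrane, passed the filter only through the medial arrays, and its call is therefore no support for a difference. It read 1800 and 1744 in medial, 1362 and 1237 in rostral, 1154 and 1068 in occipital, 700 and 701 in dorsal, and 534 and 620 in ventral. The difference was 0.95 ± 0.15 (adjusted p = 0.0242, limma), and the pieces did not overlap with medial. Igfbp3, which binds insulin-like growth factors, read 3273 and 3491 against 535 to 2141 (1.46 ± 0.284, adjusted p = 0.0499). It was the only one of 8 tested members of the insulin-like growth factor list to pass, and the list's median was 0.04. Ier2, an immediate early gene, was higher by 1.13 (adjusted p = 0.0437). With Gadd45g it made 2 higher of 16 tested immediate early and stress genes, whose median was -0.01. Among all tested genes 0.658% were called higher.

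Pter encodes a phosphotriesterase-related enzyme. Pter and Smo were above 1387 on the medial arrays alone and Pld2 on 1 array besides, so these 3 genes were tested only because they were high in medial, and their calls are no support for a difference. Pter read 1665 and 1508 in medial and at most 807 on the other 8 arrays, 6 of which lay under the floor. Its difference was 1.15 ± 0.117 (adjusted p = 0.00673, limma), and 1.15 with no filter (adjusted p = 0.00202). It did not pass with the floor halved (1.5, adjusted p = 0.0599) or doubled (0.19, adjusted p = 0.341). Other genes called higher were enzymes and regulators. Psat1, of serine synthesis, read 22252 and 20903 against 8366 to 18792 (0.65). Idh2, the mitochondrial isocitrate dehydrogenase, Urod, of heme synthesis, and Tst, a sulfurtransferase, were higher by 0.79, 0.86 and 1.07. Pld2, a phospholipase, gave 0.97, with dorsal rather than ventral farthest from medial, and did not pass with no filter (adjusted p = 0.115). Tgif2, a homeodomain repressor, and Nde1, a centrosomal partner of dynein, were higher by 0.95 and 0.98. The uncharacterised 1810009A15Rik was higher by 0.84.

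GABAergic genes had the lowest median of the 20 function lists, at -1.12 over 15 tested members. Of these 4 were lower and 0 higher, where 0.701% of all tested genes were called lower. The list's median was -1.17 against ventral, -1.37 against rostral and -1.35 against occipital, but -0.04 against dorsal. Of the 15 members, 3 had a positive difference, against 52.6% of all tested genes. At an unadjusted p under the threshold, 1 member was higher and 9 were lower. At that cutoff 810 of all 5832 tested probe sets differed in either direction. Sst, the peptide somatostatin, read 3969 and 1730 in medial and 4296 and 2876 in dorsal. It read 14867 and 11827 in rostral, 11583 and 18887 in occipital, and 50907 and 42183 in ventral. Medial and dorsal overlapped, and the other 3 pieces were all higher (-2.35 ± 0.313, adjusted p = 0.0186, limma).

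Gad1, which makes GABA, read 3184 and 2478 in medial, 3225 and 2701 in dorsal, and 8168 to 21535 in the other 3 pieces. Slc32a1, which loads GABA into vesicles, read 1665 and 1550 in medial, 1647 and 2010 in dorsal, and 3933 to 13010 in the other 3. Both genes overlapped between medial and dorsal, with differences of -1.75 and -1.67 (adjusted p = 0.0187 and 0.0211, limma). Dlx1 and Dlx2, homeobox factors of the ganglionic eminences, gave -1.05 and -1.12 and did not pass (adjusted p = 0.141 and 0.182).

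Npy, neuropeptide Y, had another order. It read 4480 and 4552 in medial, 6319 and 6694 in rostral, 7591 and 7331 in occipital, 17194 and 14337 in ventral, and 26128 and 27370 in dorsal. Medial was the lowest of the 5 pieces, and dorsal the highest. The difference was -1.4 ± 0.12 (adjusted p = 0.0033, limma), a 2.65-fold change. Npy and Sst were the 2 lower of 8 tested neuropeptides, whose median was -0.6, where 0.701% of all tested genes were called lower. Cck, another peptide, gave 0.78 (adjusted p = 0.519).

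Pbx3, a homeobox factor expressed in the striatum, showed the largest difference of all. It read 1022 and 917 in medial, 2038 and 1820 in dorsal, 5041 and 11381 in rostral, 12429 and 4648 in occipital, and 23535 and 18826 in ventral. Rostral and occipital each varied over 2 times between replicates, and no array was as low as medial. The difference was -2.84 ± 0.39 (adjusted p = 0.0187, limma), a 7.18-fold change, and its other 2 probe sets, under the floor on both medial arrays, also passed. It was the only one of 7 tested striatal genes to pass, and their median was -0.91. Among all tested genes 0.701% were called lower. At an unadjusted p under the threshold, 1 striatal gene was higher and 4 were lower, where 810 of all 5832 tested probe sets differed. Penk, the enkephalin precursor, gave -1.57 (adjusted p = 0.104).

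**Figure D4:**
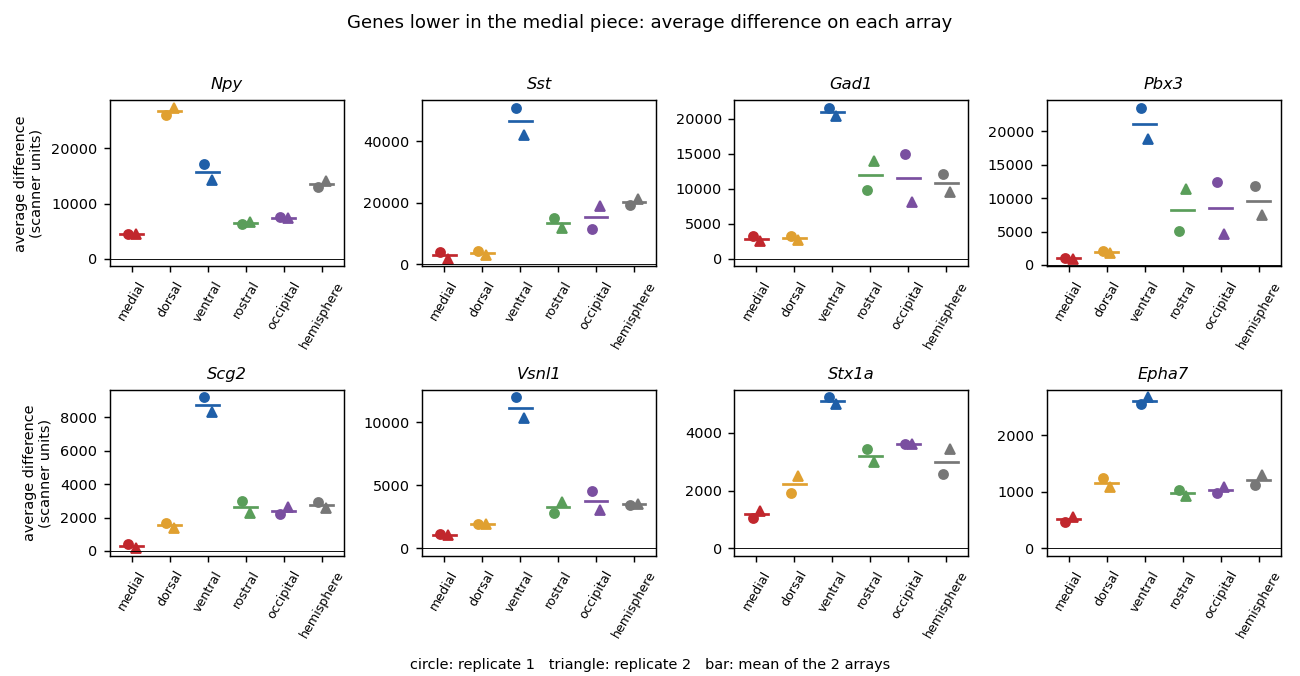
Average difference (y axis, linear scanner units) on each array for 8 of the genes called lower, by piece (x axis); circles are replicate 1, triangles replicate 2 and bars the mean of 2 arrays. Medial is as low as dorsal for Sst and Gad1 and under every other piece for the remaining 6, and Npy is highest in dorsal.

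Of 19 tested genes of synaptic vesicles and membrane fusion 5 were lower and 0 higher, with a median of -0.64. Both medial arrays were below all 8 others for 7. Among all tested genes 0.701% were called lower, and 5.44% had both medial arrays below all 8. Stx1a, a syntaxin of the presynaptic membrane, read 1063 and 1303 in medial, 1930 and 2500 in dorsal, and 2994 to 5228 in the other 3 pieces (-1.52 ± 0.163, adjusted p = 0.00694, limma). Nsf, the ATPase that takes fusion complexes apart, read 1559 and 1347 against 2207 to 10549 (-1.53, adjusted p = 0.0186). Syt1, the calcium sensor of fast release, read 1818 and 1969 against 3102 to 7494 (-1.23, adjusted p = 0.0208). All 3 were lower than in every other piece with no overlap. Syt5, a related synaptotagmin, and Dnm1, the dynamin of vesicle retrieval, were lower at -0.88 and -0.87, and Dnm1 overlapped with dorsal. Another Dnm1 probe set also passed, at -1.06 (adjusted p = 0.0211, limma), with both medial arrays below all 8 others. Snap25, the partner of Stx1a in the fusion complex, gave -0.14 (adjusted p = 0.771), and Vamp2 gave -0.44 (adjusted p = 0.146).

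Secretory granule and calcium sensor genes were lower for 4 of 14 tested members and higher for 0, with a median of -0.29. Among all tested genes 0.701% were called lower. Scg2, the granule protein secretogranin II, read 397 and 152 in medial, both under the floor. It read 1665 and 1387 in dorsal, 3003 and 2246 in rostral, 2187 and 2619 in occipital, and 9187 and 8316 in ventral. It was lower in medial by at least 4.35-fold (-2.12 ± 0.155, adjusted p = 0.00172, limma), the smallest adjusted p of the comparison. Vsnl1, a neuronal calcium sensor, read 1138 and 1036 against 1942, 3346 and 11974 as the lowest, median and highest of the other 8 (-1.89 ± 0.172, adjusted p = 0.00369). Chgb, chromogranin B, read 3703 and 3393 against 4434 to 7347 (-0.64, adjusted p = 0.0469). Resp18, another granule protein, was under the floor in medial and dorsal and at least 2.05-fold lower than the mean of the other pieces. Chga, chromogranin A, gave 0.5 (adjusted p = 0.679).

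Promoters of Sst, Scg2 and Chgb are shown because all 3 hold TGACGTCA, the cAMP response element, within 100 bases of the start. They come from the same RefSeq table and are written the same way, with the element, which reads alike on both strands, in capitals. They lie at chr16:23890845-23890944 on the minus strand, chr1:79440027-79440126 on the minus strand and chr2:132781542-132781641 on the plus strand. The element begins 48, 68 and 72 bases before the start.
Sst: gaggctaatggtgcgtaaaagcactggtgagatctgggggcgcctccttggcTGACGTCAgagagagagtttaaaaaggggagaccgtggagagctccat
Scg2: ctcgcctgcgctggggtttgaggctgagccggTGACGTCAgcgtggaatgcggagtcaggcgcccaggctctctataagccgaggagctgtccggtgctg
Chgb: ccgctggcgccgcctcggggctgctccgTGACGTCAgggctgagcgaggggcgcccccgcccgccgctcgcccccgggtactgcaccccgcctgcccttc
TGACGTCA was present in 4 of the 30 lower genes with a promoter (13.3%), the fourth being Peg3, in 0 of the 24 higher genes, in 3.24% of tested genes and in 1.77% of all genes with a promoter. These counts are small, and the choice of genes was made with their values known.

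Of 25 tested genes of the neuronal cytoskeleton and growth cone only Hap1, the huntingtin-associated protein, passed (-1.34, adjusted p = 0.0364, limma), and the median was -0.31. Both medial arrays were below all 8 others for 11, where 5.44% of all tested genes were so and 0.701% were called lower. Gap43, of the growth cone, read 19320 and 23257 with a difference of -0.67 (adjusted p = 0.0668), and Tubb3, the neuronal tubulin, gave -0.17 (adjusted p = 0.669). None of 8 tested glutamate and GABA receptor genes passed in limma (median -0.45, 4 lower at an unadjusted p under the threshold). None of 9 voltage-gated channel genes did either (median -0.17, 2 lower at an unadjusted p). At that cutoff 810 of all 5832 tested probe sets differed in either direction.

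Among 20 tested axon guidance genes 3 were lower and 0 higher, with a median of -0.04, where 0.701% of all tested genes were called lower. Epha7, an ephrin receptor, read 472 and 556 in medial, under the floor, and 922 to 2663 in the other pieces, at least 1.9-fold more (-0.93 ± 0.124, adjusted p = 0.0186, limma). It met the filter only through ventral, so its call is no support for a difference. Efnb3, an ephrin, read 6742 and 7535 against 7838 to 20005 (-0.93, adjusted p = 0.0211). Another Efnb3 probe set gave -0.49 and did not pass (adjusted p = 0.65, limma). Unc5c, a netrin receptor, read 491 and 786 in medial and 1971 and 2173 in dorsal, its highest piece (-1.01, adjusted p = 0.0493). Nrp1, a semaphorin receptor, gave 1.12 and did not pass (adjusted p = 0.306).

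Other lower genes carried varied roles. Ptpn5, a neuronal phosphatase, read 1692 and 1329 against 2519 to 5604 (-1.29 ± 0.15, adjusted p = 0.0113, limma). Prkcb, a protein kinase C, and Rcan3, a calcineurin regulator, were lower at -1.05 and -0.99. Rcan3 read 2329 and 1411 in medial and 1634 and 1743 in dorsal, so these pieces overlapped. Ripor2 and Tmeff2, a membrane protein, were lower at -1.18 and -1.19, but dorsal read as low as medial. Ndn and Peg3, both expressed from the paternal allele, were lower at -0.72 and -0.88, and both overlapped with dorsal. Other probe sets gave -0.44 for Ndn and -0.82 and -0.58 for Peg3. They did not pass (adjusted p = 0.493, 0.238 and 0.459, limma). Celf4, an RNA-binding protein of neurons, Adarb1, an RNA-editing enzyme, and Rac3, a small GTPase, were lower at -0.94, -0.84 and -0.8. Another Adarb1 probe set gave -0.64 and did not pass (adjusted p = 0.357, limma). Ugcg and Ormdl1, both of sphingolipid metabolism, were lower at -0.68 and -0.65. Scd1, a fatty acid desaturase, was under the floor on both medial arrays and at least 1.92-fold lower. Its other 2 probe sets gave -0.66 and 0.1 and did not pass. Scd1 and Epha7 were above 1387 on the ventral arrays alone, so they were tested only because ventral was high. Their calls are no support for a difference. A second probe set of Nrsn1, a neuronal vesicle protein called lower at -0.86, gave -0.001. Sub1, Blcap and Pgap4 were lower at -0.87, -0.84 and -0.98. Blcap overlapped with dorsal, with 4883 and 4477 in medial and 5232 and 4809 in dorsal.

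Genes known from the medial wall gave no call, though most were not tested. Of 34 listed hippocampal field and medial wall genes, 22 were on the array and 10 were tested. Of these 10 limma called 0, also at an unadjusted p under the threshold, with a median of -0.14. Against single pieces the median was 0.39 for dorsal, 0.09 for ventral, -0.03 for rostral and -0.13 for occipital. Zbtb20, a factor of the hippocampal field, read 1518 and 4107 with a difference of 0.99 (adjusted p = 0.526). Medial replicate 2 was the higher one, as it was for Etv4 (2603 and 6610) and Lef1 (1884 and 3362). Wnt3a read 73 and -716 in medial and Wnt2b -199.8 and -150.4, so these hem genes lay under the floor and were not tested. Prox1, of the dentate gyrus, read 274 and 188 and was not tested either. limma also made no call among 18 Wnt signalling genes (median 0.18) and 12 Bmp signalling and Id genes (median 0.18). The same held for 11 Notch signalling genes (median 0.46) and 18 pallial projection neuron genes (median 0.11). At an unadjusted p under the threshold, 4 Wnt genes were higher and 1 lower, and 3 Bmp and Id genes higher and 1 lower. For Notch genes it was 2 higher and 0 lower, and for projection neuron genes 3 higher and 1 lower. At that cutoff 810 of all 5832 tested probe sets differed in either direction. In the Notch list the difference was positive for 9 of 11, against 52.6% of all tested genes. Crym gave the highest difference of the projection neuron list, 2.03 (adjusted p = 0.242), with 4705 and 4357 in medial and about 0 in dorsal and ventral (means -20 and -10).

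**Figure D5:**
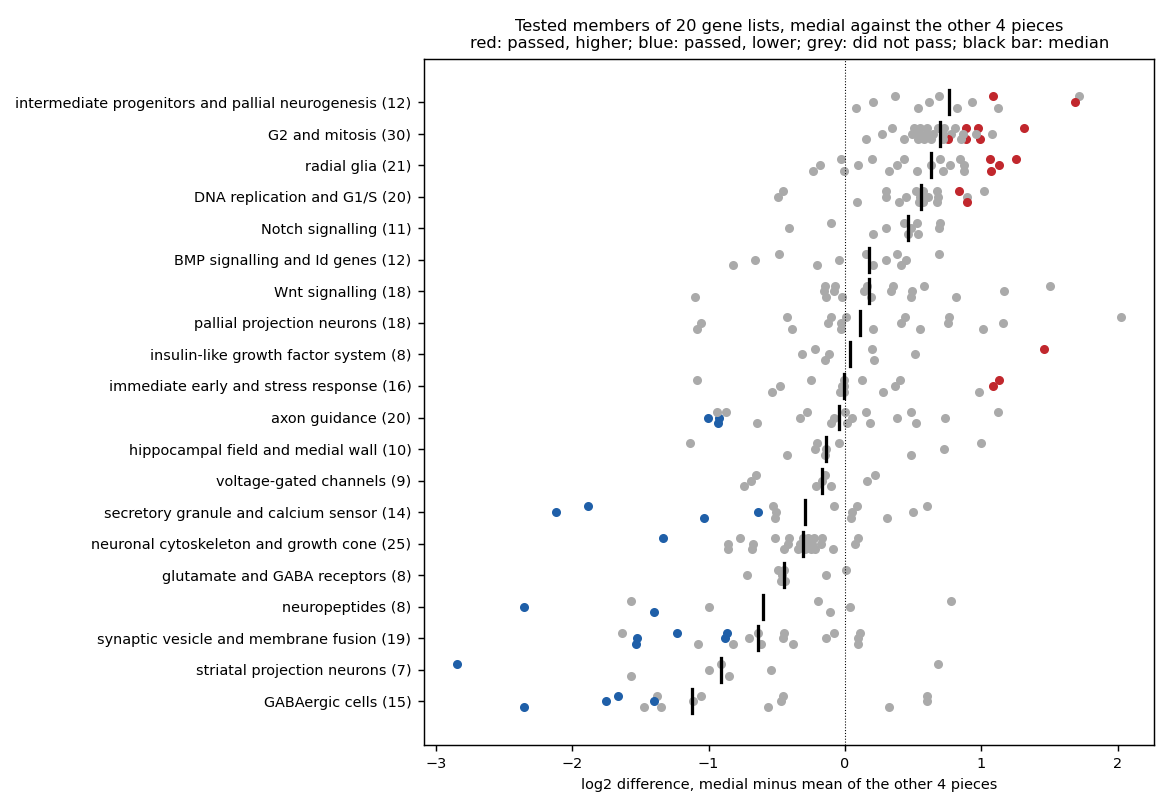
Log2 difference between the medial piece and the mean of the other 4 (x axis) for the tested members of 20 gene lists (y axis, number tested in parentheses); red points passed and were higher, blue points passed and were lower, grey points did not pass, and the black bar is the list's median. Medians run from 0.76 for intermediate progenitors to -1.12 for GABAergic cells.

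Marker genes of the labelled tissue were present in medial, with Neurod2 at 21624 and 32729, Neurod6 at 13400 and 11717 and Tbr1 at 15211 and 14107. Markers of other cell types gave no call in limma. At an unadjusted p under the threshold at most 1 marker per cell type differed, where 810 of all 5832 tested probe sets did. For choroid plexus, 4 of 13 markers were tested, and their summed floored level was 6814 and 12743 in medial against 5472 to 8840 on the other 8 arrays. Ttr, its most abundant product, read 2151 and 4564. Of the markers not tested, Kl (-149.6 and -550.2) and Slc4a5 (35.9 and -91.9) lay near or below 0. Car12 read 69.6 and 187.1. Folr1 read 671.3 and 1251.2, against at most 1179.9 on the other 8 arrays. Another Folr1 probe set read 93.6 and 405.5, against at most 374.2. The sum for endothelium was 8081 and 6953 against 7590 to 11014, for microglia and blood cells 7512 and 7930 against 6879 to 10804, and for erythroid cells 73161 and 81201 against 73295 to 89774. For meninges it was 21590 and 28582 against 18792 to 27435, for Cajal-Retzius cells 15773 and 12472 against 7664 to 24688, and for oligodendrocyte precursors 3395 and 3080 against 3258 to 6378. For astrocytes it was 11143 and 15928 against 7106 to 16558, and for thalamus 5081 and 7573 against 4326 to 8376. The part of choroid plexus RNA in the medial differences was not tested.

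With the ventral piece taken out of the reference, 5 of 5832 probe sets passed (0.0857%), 1 higher (0.0171%) and 4 lower (0.0686%), and 433 had an unadjusted p under the threshold. This comparison uses the same medial arrays and 6 of the same reference arrays, so the values are given side by side and are no separate support. The higher one was Pter at 1.14 (adjusted p = 0.0128, limma), which met the filter only through medial. Scg2 was lower at -1.61 (0.0114), Npy at -1.27 (0.0114), Vsnl1 at -1.4 (0.0331) and Stx1a at -1.32 (0.0331), as adjusted p in parentheses. The median of the 30 higher genes became 0.64 and that of the 35 lower genes -0.74. Cdk1 gave 0.89 (adjusted p = 0.116), Sst -1.75 (0.145), Gad1 -1.37 (0.145) and Pbx3 -2.31 (0.144). The list medians became 0.47 for G2 and mitosis, 0.43 for radial glia, 0.38 for DNA replication, 0.37 for intermediate progenitors, -0.92 for GABAergic cells and -0.43 for vesicle fusion. limma called 0 probe sets without medial replicate 2 (309 at an unadjusted p under the threshold), without dorsal replicate 1 (353) or without dorsal replicate 2 (333). It called 1 without medial replicate 1, 3 without either ventral array, and 2 or 3 without a rostral one.

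The whole hemisphere arrays lay between medial and ventral for the leading genes. Eomes read 2512 and 2831 there, Cdk1 3074 and 3229, Sst 19220 and 21143, Npy 13100 and 14165, and Scg2 2940 and 2588. The median difference of medial from the hemisphere was 0.59 over the 30 higher probe sets and -0.98 over the 44 lower ones, again with the medial arrays in common. Just outside the threshold stood Sema4a at -0.79 and Gnao1 at -0.69 (adjusted p = 0.0519 for both, limma). They were followed by Chaf1b at 0.77 (0.0519), Tcf19 at 0.78 (0.0529) and Rnf227 at -0.81 (0.0548), with the adjusted p in parentheses.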

How the data were processed

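The deposited values are average difference intensities, one per probe set (per the labels' protocols). The labels' account of the data analysis ends there, so the software is not given in the sources used here. The authors had scaled them per array, since the deposited columns share a 2% trimmed mean (2501.6 to 2501.9), and they were used as they stood. A floor of 693.5, computed as the root mean square of the negative values, replaced lower values. Of 12488 probe sets, 66 controls were left out, and those above 1387 on at least 2 arrays were tested (5832, 46.9%). The platform annotation gives 5292 of them exactly 1 symbol (4562 genes), 212 several and 328 none.

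Log2 values were fitted in limma 3.58.1 (R 4.3.3) with a mean for each of 6 groups and 6 residual degrees of freedom. Tests were two-sided, with Benjamini-Hochberg adjustment over 5832 probe sets and a threshold of 0.05. A fold is the difference of floored log2 means, and "at least" marks genes under the floor on both medial arrays. All genes past the threshold could be named, by their passing probe set with the highest mean, besides members of 20 function and 10 marker lists and the 5 genes next to the threshold. The comparison, its members and the lists were chosen with earlier results of these data known. Single pieces were not tested against medial, and 2 arrays in a group limit the precision.

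On simulated arrays with the spread measured here, 68% of changes of 1 log2 unit and 92% of changes of 2 were recovered for medial against the other 4 pieces, with 9 false calls among 169 over 5832 probe sets. Without ventral in the reference these were 65%, 91% and 8 of 164. Noise was drawn independently for each array around 1 mean per probe set. No floor, no difference among the other pieces and no effect shared by same-numbered arrays was simulated. On the real arrays the deviations of same-numbered arrays correlated at up to 0.562, so these rates need not hold there.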

Additional observations from a re-analysis of the deposited data

How the results depend on the processing

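With medial against the other 4 pieces, 74 probe sets passed. The count was 76 with the floor halved, 106 with it doubled, 55 with no filter, 80 with a stricter filter, 79 after quantile normalization, and 76 on an arcsinh scale or with trend and robust variances. It was 124 when the fit left out the hemisphere, 149 with rostral and occipital as 1 group, and 166 without these pieces. Leaving out 1 array gave 0 to 124. With the replicate number as a block, limma called 256, 113 higher and 143 lower, and 65 of 65 genes kept their call. The deviations of same-numbered arrays correlated at over 0.1 in 14 of 15 pairs of groups, among them all 5 with medial (0.103 to 0.502), but at -0.06 for rostral and occipital, so pairing was not assumed. Under the block the calls rose from 6 to 11 in G2 and mitosis, from 4 to 7 in radial glia, from 2 to 6 in intermediate progenitors and from 2 to 5 in DNA replication. Lists without a call gained 2 (receptors), 2 (Wnt, 1 each way), 1 (Notch) and 1 (projection neurons). With ventral out of the reference, 5 passed (1 higher, 4 lower), 1 with the floor doubled, 8 with no filter (5 higher, 3 lower) and 2 on the arcsinh scale. With the replicate block 5 passed, and leaving out 1 array gave 0 to 5. No called gene changed direction. The medians of 5 lists, all within 0.14 of 0, changed sign: hippocampal field from -0.14 to 0.26 without rostral and occipital, projection neurons from 0.11 to -0.14 without medial replicate 2, and the insulin-like growth factor, immediate early and guidance lists. Values near the floor have no order. The cause of the changes was not tested.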
